A study of Mus musculus with 4 samples.

Results

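The transcripts described here belong to 45 genes of the cell division cycle, chosen by name for their known roles, out of 22672 named genes in the deposited count table. All 45 were in the table and all 45 passed the filter on low counts. They fall into 18 genes that act at the start of DNA replication (G1/S), 23 that act in mitosis (G2/M) and 4 inhibitors of cyclin-dependent kinases (CDKs). The counts came from 4 RNA sequencing libraries of mouse splenic T cells. Of these, 2 libraries carried the label SphK1 -/- (deficient in sphingosine kinase 1, which makes the lipid mediator sphingosine-1-phosphate) and 2 the label WT control. In both groups the cells carried the transgenic Pmel T cell receptor, which recognises a peptide of the pigment cell protein gp100, and had grown for 72 h in IL-2 (100 U/ml) and the peptide itself (1 µg/ml). Every value is therefore from activated cells, and no resting cells were analysed here. The sources used here did not give the age and strain background of the mice or the knockout allele. Nor did they say if the libraries of a group came from different animals, so p-values measure only the spread between these libraries, which may be technical.

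A T cell that meets its antigen leaves quiescence through D-type cyclins, which activate CDK4 and CDK6 and release E2F factors from the retinoblastoma protein. E2F factors then switch on cyclin E and the replication genes, among them the MCM helicase and PCNA, the sliding clamp of DNA polymerases. Mitotic genes follow: cyclin B with CDK1 drives entry, the spindle checkpoint holds anaphase back, and the anaphase-promoting complex ends mitosis by marking cyclin B for destruction with its ubiquitin-conjugating enzymes UBE2C and UBE2S.

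Depth was 50538355 and 53640611 counts in the SphK1 -/- libraries and 44277592 and 46449606 in the control libraries. Sphk1 itself ran against the labels, with 35 and 18 counts in the SphK1 -/- libraries and 2 and 4 in the control libraries (log2 fold change 3.12 ± 0.66 SE, adjusted p = 0.0233), so the groups are called by their labels. Levels are given as CPM, the counts of a gene relative to the library total after scaling by the trimmed mean of M-values. Sphk1 was low in all 4 libraries, at 0.74 and 0.37 CPM in the SphK1 -/- libraries and 0.043 and 0.080 CPM in the control libraries. The 10 T cell markers, Cd8a and Cd3e among them, summed to 3715 and 3886 CPM in the SphK1 -/- libraries and to 4125 and 4151 CPM in the control libraries. Markers of other cells were low. The 8 B cell markers summed to 402.7 and 193.3 CPM in the SphK1 -/- libraries and to 193.9 and 204.2 CPM in the control libraries, and Cd79a rose. The 9 macrophage and monocyte markers in the table summed to 133.3 and 123.0 CPM in the SphK1 -/- libraries and to 90.5 and 83.4 CPM in the control libraries, and Cd68 and Ccr2 rose. None of these markers was at 0 in all libraries. No marker of T cells, natural killer cells, helper T cells or erythroid cells was called, and Klra4, Klra8, Hba-a1 and Hba-a2 were at 0 in all 4 libraries. The part of these cells in the results was not tested. Transcripts of 83 ribosomal protein genes took 11.3% and 10.5% of the counts in the SphK1 -/- libraries, against 2.91% and 2.79% in the control libraries.

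Of the 45 cell cycle genes, 5 rose in the SphK1 -/- libraries (adjusted p below 0.05, edgeR) and 0 fell. They were Ube2s, Ccnb1, Pcna, Cdkn2c and Ccnd3. Over all 12758 tested genes 6.75% were called, of which 6.0% of the tested genes rose and 0.752% fell. The other 40 members had log2 fold changes between −0.27 and 0.51, of which 31 were negative and 9 positive. Among all 12758 tested genes, 6861 were negative and 5897 positive. None of these 40 members fell in DESeq2 or limma-voom. With library totals as the only scaling 12 members were called lower, where 11.2% of all tested genes were and the median of all genes was −0.26. In the main scaling, at an unadjusted p below 0.05 there were 2 lower members, E2f2 and Cdkn1b, in a table where 4.38% of all tested genes were lower by that measure. In bulk RNA, a change in the number of dividing cells and a change in RNA per dividing cell cannot be told apart.

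**Figure D1:**
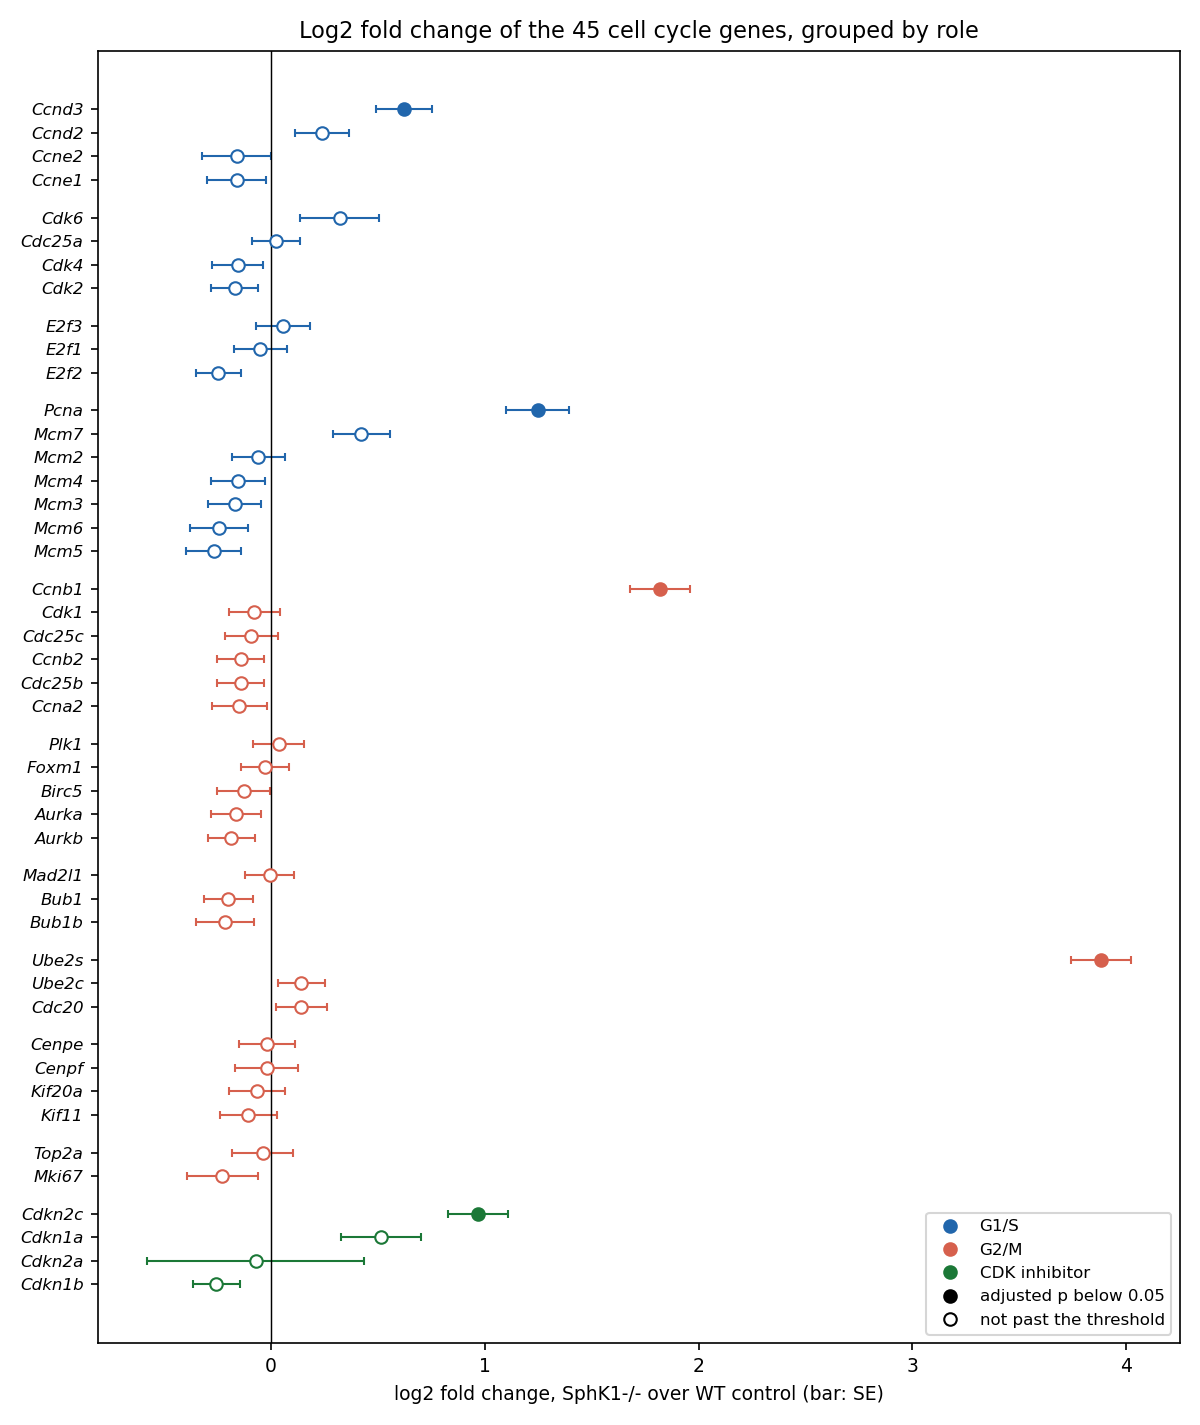
Log2 fold change (SphK1 -/- over WT control) of the 45 genes on the x axis, with the standard error as a bar, grouped by role down the page. Filled points passed an adjusted p of 0.05: Ube2s at 3.88, Ccnb1 at 1.82, Pcna at 1.25, Cdkn2c at 0.97 and Ccnd3 at 0.62, while open points crowd around 0.

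Ube2s showed the largest difference of the set. It encodes the enzyme that elongates ubiquitin chains on substrates of the anaphase-promoting complex, and lies on chromosome 7 from 4794546 to 4812590 (GRCm38, minus strand). The SphK1 -/- libraries held 11520 and 12081 counts, or 245.1 and 248.7 CPM, and the control libraries 863 and 759 counts, or 18.4 and 15.1 CPM. The groups lay far apart, and replicates lay close together. Group means were 246.9 ± 2.60 CPM and 16.7 ± 2.29 CPM (SD, n = 2 each, SphK1 -/- then control), a ratio of 14.7, with a log2 fold change of 3.88 ± 0.14 (SE) and an adjusted p of 2.72e-07. Ube2c, the enzyme that starts those chains, had 217.6 and 228.0 CPM in the SphK1 -/- libraries against 210.8 and 193.1 CPM in the control libraries. Its log2 fold change was 0.14 ± 0.11 (adjusted p = 0.641), and the groups did not overlap. Cdc20, the activator of the complex in mitosis, had 185.7 and 211.4 CPM against 171.2 and 188.8 CPM, with overlapping groups and a log2 fold change of 0.14 ± 0.12 (adjusted p = 0.669).

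The B-type cyclins differed from each other. Ccnb1 (chromosome 13, 100778650 to 100786570, minus strand) had 9529 and 12273 counts in the SphK1 -/- libraries and 3202 and 3061 in the control libraries. These corresponded to 202.7 and 252.7 CPM in SphK1 -/- libraries and to 68.2 and 61.0 CPM in controls, so the groups lay far apart. The ratio of group means was 3.53, the log2 fold change 1.82 ± 0.14 (SE) and the adjusted p 3.61e-05. Ccnb2, the second B-type cyclin, had 169.8 and 182.1 CPM in the SphK1 -/- libraries and 195.2 and 193.3 CPM in the control libraries, a log2 fold change of −0.14 ± 0.11 (adjusted p = 0.627). Per kilobase of annotated exon, Ccnb1 stood at 53.997 CPM in the SphK1 -/- libraries and 15.3 CPM in the control libraries, while Ccnb2 stood at 115 and 127 CPM, values that depend on the exon length used. Without division by length, the Ccnb1 mean was the higher of the pair in the SphK1 -/- libraries and the Ccnb2 mean in the control libraries.

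The remaining genes of mitotic entry had no call. Cdk1, the kinase that B-type cyclins activate, had 207.9 and 227.5 CPM in the SphK1 -/- libraries and 244.0 and 215.8 CPM in the control libraries, with overlapping groups (log2 fold change −0.079 ± 0.12, adjusted p = 0.829). Cyclin A2, which binds CDK2 in S phase and CDK1 later, had a log2 fold change of −0.15 for Ccna2. The phosphatases that remove the inhibitory marks from CDK1 had values of −0.14 (Cdc25b) and −0.093 (Cdc25c). Among mitotic kinases, Plk1 had 171.5 and 195.7 CPM against 187.0 and 171.3 CPM in controls, and the groups overlapped (0.036 ± 0.12, adjusted p = 0.927). Aurkb, the kinase of the chromosomal passenger complex, had 197.1 and 211.8 CPM in the SphK1 -/- libraries, both below the 234.1 and 231.1 CPM of the control libraries, although the log2 fold change of −0.19 ± 0.11 did not pass the threshold (adjusted p = 0.517). Values were −0.17 for Aurka, −0.13 for Birc5, which encodes the passenger subunit survivin, and −0.027 for Foxm1, the transcription factor of mitotic genes.

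Checkpoint and spindle genes had small differences throughout. Bub1, Bub1b and Mad2l1, which hold anaphase until kinetochores are attached, had log2 fold changes of −0.20, −0.22 and −0.0061. The kinetochore genes Cenpe and Cenpf stood at −0.018 and −0.021, and the spindle motors Kif11 and Kif20a at −0.11 and −0.067. The most used measures of proliferation had overlapping groups. Mki67 had 942 and 1205 CPM in the SphK1 -/- libraries against 1145 and 1370 CPM in the control libraries (−0.23 ± 0.17 SE, adjusted p = 0.610). Top2a, the topoisomerase that untangles chromosomes, had 1282 and 1477 CPM against 1340 and 1497 CPM (−0.040 ± 0.14 SE, adjusted p = 0.932). The direction of Top2a, Cenpe, Cenpf, Mad2l1 and Foxm1 was negative here and positive when libraries were scaled by genes without shared sequence.

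At G1/S the clearest difference was in Pcna, the sliding clamp of DNA polymerases (chromosome 2, 132249162 to 132253314, minus strand). It had 32792 and 37005 counts in the SphK1 -/- libraries against 16075 and 13701 in the control libraries, which are 697.6 and 761.9 CPM against 342.2 and 273.1 CPM. Every SphK1 -/- value was above every control value. Means were 730 ± 45.5 CPM and 308 ± 48.9 CPM (SD, n = 2 each), a ratio of 2.37, with a log2 fold change of 1.25 ± 0.15 (SE) and an adjusted p of 0.00063. The genes of the MCM helicase had no call in edgeR. Mcm2 had 301.6 and 353.9 CPM in the SphK1 -/- libraries and 340.4 and 342.7 CPM in the control libraries (log2 fold change −0.060 ± 0.12, adjusted p = 0.881). Of the 6 MCM subunits, 5 had negative log2 fold changes, from −0.060 for Mcm2 to −0.27 for Mcm5, and 1, Mcm7, was positive. Mcm3, Mcm4, Mcm5 and Mcm6 were lower in both SphK1 -/- libraries than in both control libraries, as were 23.8% of all tested genes. Mcm7 had 407.2 and 485.6 CPM against 350.2 and 316.3 CPM, groups that did not overlap, with a log2 fold change of 0.42 ± 0.13 (SE); its adjusted p of 0.136 missed the threshold in edgeR and was 0.0296 in the DESeq2 Wald test. The subunit proteins form 1 ring in equal numbers. Per kilobase of annotated exon, the RNA level ranged from 47.1 CPM (Mcm2) to 146 CPM (Mcm3) in the SphK1 -/- libraries. In the control libraries it ranged from 49.1 CPM (Mcm2) to 164 CPM (Mcm3). These values depend on the exon length used, 6956 bases for Mcm2 and 3752 bases for Mcm3. Without division by length, Mcm2 and Mcm3 had means of 328 and 548 CPM in the SphK1 -/- libraries and 342 and 617 CPM in the control libraries.

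Among the cyclins of G1, Ccnd3 rose. This gene of cyclin D3 (chromosome 17, 47505051 to 47599691, plus strand) had 574.1 and 476.5 CPM in the SphK1 -/- libraries and 335.4 and 348.0 CPM in the control libraries, a ratio of 1.54, with a log2 fold change of 0.62 ± 0.13 (SE) and an adjusted p of 0.0233. The groups did not overlap, but the call rested on every library except SphK1 -/- 2: it was lost without SphK1 -/- 1 (log2 fold change 0.48, adjusted p = 0.198), without control 1 (0.62, adjusted p = 0.0771) and without control 2 (0.65, adjusted p = 0.0516). It was also lost in the fit of genes with little shared sequence, where the log2 fold change was 0.66 (adjusted p = 0.115), and with library totals as the only scaling, where it was 0.38 (adjusted p = 0.0762). Ccnd2, the other D-type cyclin of the set, had 555.3 and 494.1 CPM against 461.1 and 429.0 CPM, higher in both SphK1 -/- libraries without passing the threshold (0.24 ± 0.12, adjusted p = 0.451).

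Their partner kinases had no call, with log2 fold changes of −0.16 for Cdk4 and 0.32 for Cdk6. The Cdk6 value moved with 1 library, control 1, which held 32.8 CPM against 50.05 CPM in control 2 and 51.7 and 51.8 CPM in the SphK1 -/- libraries. Without control 2 its log2 fold change was 0.66 (adjusted p = 0.0179), and without control 1 it was 0.077. Ccne1, which brings CDK2 to the start of replication, had 95.5 and 112.8 CPM in the SphK1 -/- libraries against 127.9 and 105.2 CPM in controls, so the groups overlapped (−0.16 ± 0.14, adjusted p = 0.667). Ccne2 and Cdk2 had values of −0.16 and −0.17, and Cdc25a, the phosphatase that frees CDK2, 0.024. Of the E2F activators, E2f1 had 71.1 and 62.9 CPM against 74.2 and 64.6 CPM (−0.051 ± 0.12, adjusted p = 0.898), E2f3 had a log2 fold change of 0.054, and E2f2 was lower in both SphK1 -/- libraries, at 147.8 and 149.5 CPM against 176.3 and 176.5 CPM (−0.25 ± 0.10, adjusted p = 0.317).

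The CDK inhibitors did not move together. Cdkn2c, which encodes p18-INK4c, a protein that binds CDK4 and CDK6 and keeps D-type cyclins from activating them, rose. It lies on chromosome 4 from 109660876 to 109667189 (minus strand) and had 1892 and 2276 counts in the SphK1 -/- libraries against 977 and 1190 in the control libraries. The CPM values were 40.2 and 46.9 in SphK1 -/- libraries and 20.8 and 23.7 in controls, a ratio of 1.96, with a log2 fold change of 0.97 ± 0.14 (SE) and an adjusted p of 0.00262. Cdkn1a, the gene of p21 and a target of p53, had 437.1 and 338.8 CPM in the SphK1 -/- libraries against 226.0 and 317.8 CPM in the control libraries. The groups did not overlap, and the log2 fold change of 0.51 ± 0.19 had an adjusted p of 0.215, which became 0.038 without control 2. Cdkn1b, the gene of p27, an inhibitor that falls when T cells start to divide, was lower in both SphK1 -/- libraries, at 75.2 and 81.8 CPM against 95.3 and 92.1 CPM (−0.26 ± 0.11, adjusted p = 0.316). Cdkn2a, which encodes p16-INK4a and p19-ARF, was low, with 48 and 42 counts in the SphK1 -/- libraries and 70 and 25 in the control libraries (log2 fold change −0.071 ± 0.51 SE, adjusted p = 0.966).

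**Figure D2:**
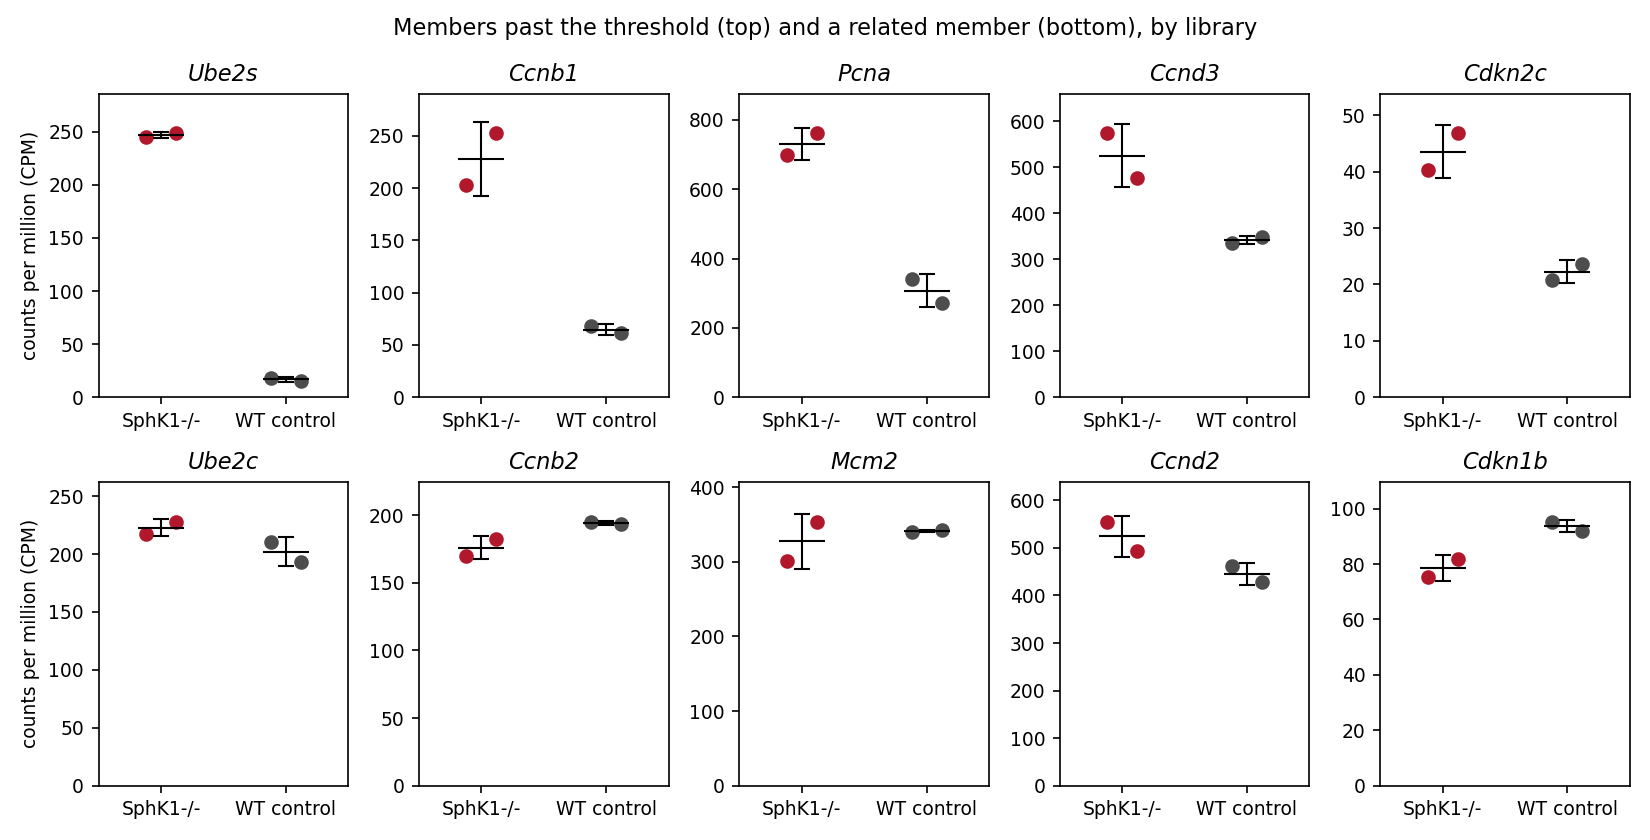
CPM (y axis, from 0) of the 5 genes past the threshold in the top row and of a related gene under each, by group; points are libraries, the horizontal line is the mean and the bar its SD (n = 2). Ube2s, Ccnb1, Pcna, Ccnd3 and Cdkn2c are higher in both SphK1 -/- libraries, whereas Ube2c, Ccnb2, Mcm2, Ccnd2 and Cdkn1b differ by at most 0.26 on the log2 scale. The related genes are a selection, and Mcm7 (0.42), Cdkn1a (0.51) and Mcm5 (−0.27) are among those not plotted.

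Several cell cycle genes have pseudogene copies, most of them processed pseudogenes, which are copies of messenger RNA inserted back into the genome. A search of the coding sequence of each member against all other annotated transcripts (GENCODE M21) found 36 such copies of 18 members, at 80% identity or more over at least 30% of the coding sequence. All 36 were annotated as pseudogenes, 34 processed and 2 unprocessed, and 0 of the 36 had an entry in the deposited table under their symbol. Ccnb1 had 7 copies, among them Ccnb1-ps with 99.2% identity, Gm12856 with 98.1% and Gm8416 with 97.3%. Pcna had Pcna-ps2 at 99.2%, Mcm7 had Gm5487 at 97.7% and Ccnd3 had Ccnd3-ps at 96.3%. Over 60 bases near the start of the coding sequence, shown here because a gene and its copy can be nearly the same over the length of a read, capitals mark the bases in which a copy differs from the gene above it.
Ccnb1, coding bases 22 to 81: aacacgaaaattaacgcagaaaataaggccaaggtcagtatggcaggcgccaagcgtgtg
Ccnb1-ps, chr7:42107105-42107164, minus strand: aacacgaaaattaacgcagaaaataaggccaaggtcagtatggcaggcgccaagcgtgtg
Gm12856, chr4:118943272-118943331, minus strand: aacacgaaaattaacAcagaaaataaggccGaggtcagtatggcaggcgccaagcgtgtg
Gm8416, chr14:8408936-8408995, plus strand: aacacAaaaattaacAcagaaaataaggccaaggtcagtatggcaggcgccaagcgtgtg
Gm4870, chr5:143438393-143438452, plus strand: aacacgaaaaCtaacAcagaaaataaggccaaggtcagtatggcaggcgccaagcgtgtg
Pcna, coding bases 4 to 63: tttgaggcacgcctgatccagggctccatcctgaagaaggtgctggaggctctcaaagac
Pcna-ps2, chr19:9283382-9283441, plus strand: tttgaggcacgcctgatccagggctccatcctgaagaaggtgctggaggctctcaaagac
Ccnd3, coding bases 1 to 60: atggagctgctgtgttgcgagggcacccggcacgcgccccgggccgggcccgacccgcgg
Ccnd3-ps, chr4:139346121-139346180, minus strand: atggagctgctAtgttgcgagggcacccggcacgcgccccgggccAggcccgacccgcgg
Cdc20, coding bases 4 to 63: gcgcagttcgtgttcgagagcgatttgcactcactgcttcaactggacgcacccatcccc
Gm7856, chr16:91514573-91514632, minus strand: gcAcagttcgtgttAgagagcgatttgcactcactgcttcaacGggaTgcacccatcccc
Mcm7, coding bases 1 to 60: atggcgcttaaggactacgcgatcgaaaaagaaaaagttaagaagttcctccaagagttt
Gm5487, chr16:53983928-53983987, plus strand: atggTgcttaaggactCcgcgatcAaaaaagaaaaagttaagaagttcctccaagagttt
Plk1, coding bases 1 to 60: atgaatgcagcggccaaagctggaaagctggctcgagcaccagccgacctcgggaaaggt
Plk-ps1, chr5:35554184-35554243, plus strand: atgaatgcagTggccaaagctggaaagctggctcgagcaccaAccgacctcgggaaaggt

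In these 60 bases Ccnb1-ps and Pcna-ps2 differed from their genes at 0 positions, Ccnd3-ps at 2, the Plk1 copy Plk-ps1 at 2, the Mcm7 copy Gm5487 at 3 and the Cdc20 copy Gm7856 at 4, so the count in this short stretch did not separate Plk1, which did not rise, from Ccnd3. Taking for each member the closest copy over at least 90% of its coding sequence, 12 members had one. The 4 whose copy was over 95% identical, Ccnb1, Pcna, Mcm7 and Ccnd3, had log2 fold changes of 1.82, 1.25, 0.42 and 0.62. The 8 with a closest copy of at most 95% identity, Cdk4, Mcm4, Plk1, Aurka, Mad2l1, Cdc20, Ube2c and Kif11, had values between −0.17 and 0.14. The limit of 95% was set after these values had been seen, and the grouping depends on the 90% length rule too: Mad2l1, at −0.0061, had a shorter copy, Gm42430, of 95.4% identity over 73.5% of its coding sequence. Among the 33 members with no such copy, the median was −0.093 and 2 rose, Ube2s and Cdkn2c.

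**Figure D3:**
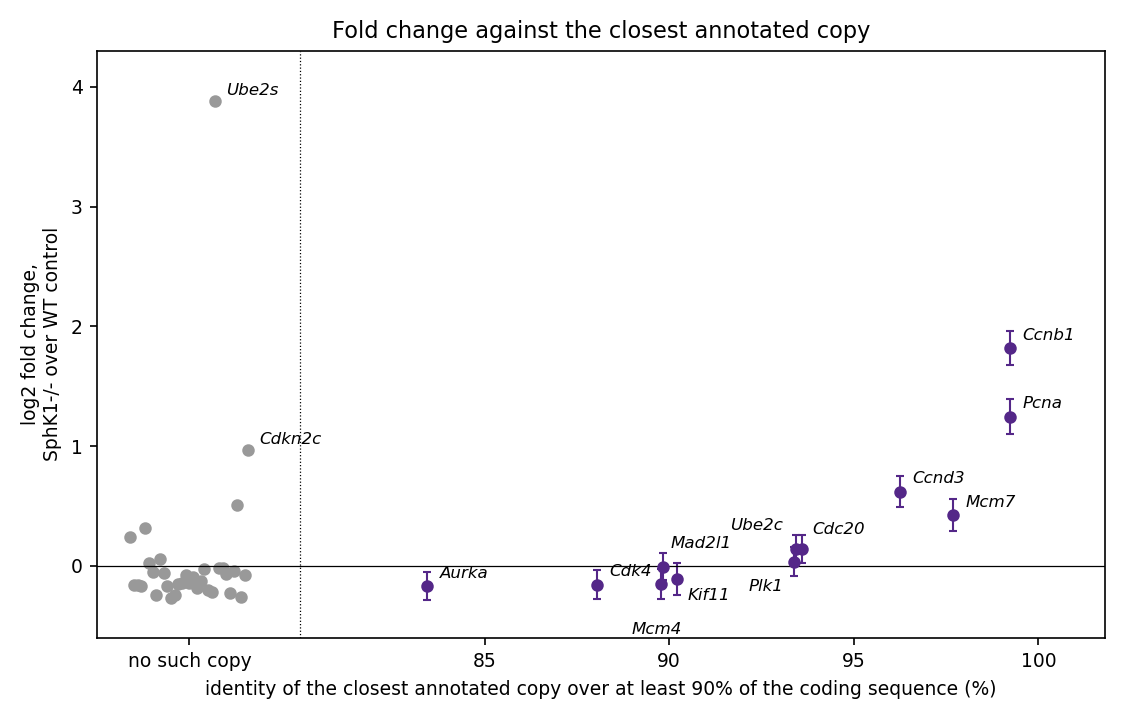
Log2 fold change (SphK1 -/- over WT control, y axis) of the 45 genes against the identity in percent of the closest annotated copy over at least 90% of the coding sequence (x axis); bars on the purple points are SE, and the grey points at the left, drawn without bars, are the 33 genes with no such copy, spread sideways only to separate them. The 4 genes with such a copy over 95% identical are the highest of the 12, and the shorter copy of Mad2l1 at 95.4% is not plotted.

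Sequence sharing was also measured for every gene, as the share of its 30-base words found in any other gene of the annotation. Of the 10 members that shared 0%, 1 rose (Cdkn2c), in a class where 0.947% of all tested genes rose. Of the 26 that shared up to 5%, 2 rose (Ccnd3 and Ube2s), where 1.76% of all tested genes did. Of the 4 above 5% and up to 15%, 0 rose in edgeR, where 17.4% of all tested genes did. The 5 above 15% and up to 30% were Ccnb1 (28.1%), Cdc20 (26.8%), Mcm7 (24.9%), Pcna (23.6%) and Plk1 (15.5%), of which 2 rose, where 47.7% of all tested genes did. No member shared more than 30%, a class in which 46.7% of tested genes rose. Ccnd3 shared 4.54%, Ube2s 4.24% and Cdkn2c 0% of their words. Ube2s and Cdkn2c were the members called in a fit restricted to genes with little shared sequence and little overlap, with log2 fold changes of 3.92 and 1.01. That fit tested 9096 genes, of which 0.682% rose and 0.0989% fell. Ccnd3 was in it and was not called, whereas Ccnb1 and Pcna were left out of it by its limit on shared words. Copies outside annotated transcripts were not searched. The sources used here did not give the settings with which each library was aligned and counted, so a difference in counting between the groups and a difference between genotypes cannot be told apart.

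Set against each other, G1/S and G2/M genes differed little. The median log2 fold change was −0.11 over the 18 G1/S members and −0.079 over the 23 G2/M members, beside −0.021 over all tested genes, so the medians of the phases lay 0.028 apart. The median of all tested genes differed by shared words: −0.056 at 0% and −0.037 up to 5%, the classes of 10 and 26 members. It was 0.13 above 5% and up to 15%, and 0.67 above 15% and up to 30%, the classes of 4 and 5 members. Of the G1/S members, 2 rose (Pcna and Ccnd3) and 11 were negative, and of the G2/M members 2 rose (Ube2s and Ccnb1) and 18 were negative. Among all 12758 tested genes, 6861 were negative. Without the called genes, the mean level of the 16 remaining G1/S members was 7.37 and 7.51 log2 CPM in the SphK1 -/- libraries and 7.51 and 7.47 in the control libraries. That of the 21 remaining G2/M members was 7.68 and 7.86 log2 CPM in the SphK1 -/- libraries against 7.82 and 7.88 in the controls. SphK1 -/- 1 was the lowest library in both phases, and 35 of the 40 members without a call were lower there than in SphK1 -/- 2. The G2/M level minus the G1/S level was 0.31 and 0.35 in the SphK1 -/- libraries and 0.31 and 0.42 in the control libraries, so the groups overlapped. Over all 45 genes, 10 were higher and 15 lower in both SphK1 -/- libraries than in both control libraries, where 21.0% and 23.8% of all tested genes were so.

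**Figure D4:**
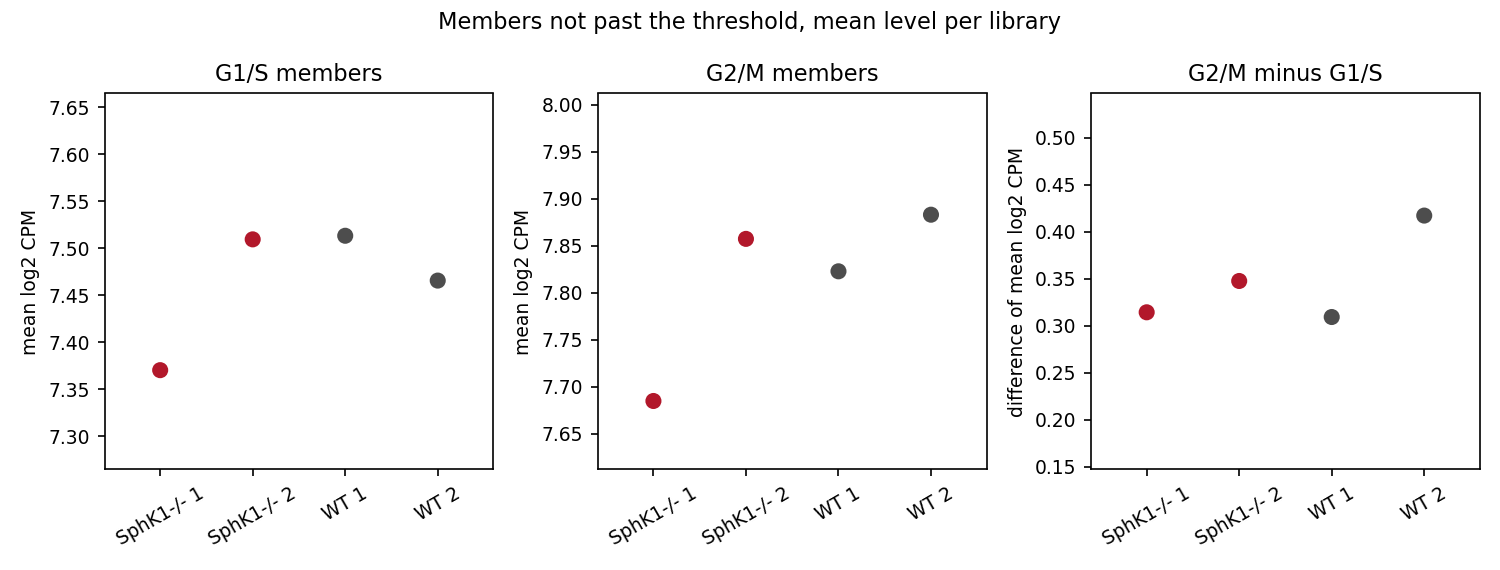
Mean log2 CPM per library (y axis) of the 16 G1/S and the 21 G2/M members that did not pass the threshold, and the difference between the 2 means; each panel spans 0.4 log2 units. SphK1 -/- 1 is lowest in both phases, and the G2/M minus G1/S difference overlaps between the groups.

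The promoter windows of the phases are described as sequence only. The genes were chosen for their known phases, and the windows hold no value from these libraries. RefSeq promoter windows (GRCm38.p6, 250 bases before to 50 after the start of transcription) matched 15 of the 18 G1/S members, 18 of the 23 G2/M members and all 4 inhibitors, and were searched on both strands for 3 kinds of motif, none of which contains another. The cell cycle homology region (CHR, TTTGAA or TTTAAA), which the DREAM and B-MYB complexes bind, was found in 14 of the 18 G2/M windows and 4 of the 15 G1/S windows, against 27.8% of 27025 promoters. The CCAAT box (CCAAT), which NF-Y binds, was found in 15 of 18 and 10 of 15 windows, against 37.9% of all. An E2F site (TTTCCCGC or TTTGGCGC) was found in 0 of the 18 G2/M and 8 of the 15 G1/S windows, against 1.63% of all. Both CHR and CCAAT were present in 13 of 18 G2/M windows and in 10.9% of all promoters.

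Ube2s and Ccnb1, the G2/M genes that rose, differed in this. The 120 bases before the RefSeq start are printed for both and for Ccnb2, with the motifs in capitals, because the windows of Ccnb1 and Ccnb2 hold both CCAAT and CHR letters and that of Ube2s holds neither. The RefSeq start is not the outer end of the GENCODE gene: the Ube2s stretch lies wholly inside the GENCODE M21 span given above, and part of the Ccnb1 stretch lies inside that of Ccnb1, so other starts would give other windows.
Ube2s, chr7:4812341-4812460, minus strand: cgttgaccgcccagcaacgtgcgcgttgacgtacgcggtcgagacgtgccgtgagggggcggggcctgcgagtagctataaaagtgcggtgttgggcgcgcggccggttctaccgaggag
Ccnb1, chr13:100786487-100786606, minus strand: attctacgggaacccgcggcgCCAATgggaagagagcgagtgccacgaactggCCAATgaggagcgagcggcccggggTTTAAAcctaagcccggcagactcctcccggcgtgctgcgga
Ccnb2, chr9:70421555-70421674, minus strand: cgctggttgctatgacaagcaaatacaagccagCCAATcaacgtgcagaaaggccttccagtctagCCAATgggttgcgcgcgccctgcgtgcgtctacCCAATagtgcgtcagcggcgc
Ccnb1 carried a pair of CCAAT boxes with a TTTAAA behind them, and Ccnb2 a run of CCAAT boxes with a TTTGAA just past the start and another upstream of the boxes, both outside the printed stretch. A match is a stretch of letters and not a measured site, and the absence of these letters from the Ube2s window says nothing about the factors.

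Other genes of these steps were taken from lists by function, and their counts are read against the 6.0% of all tested genes that rose and the 0.752% that fell. Of 20 tested genes of origin licensing and firing, such as the Orc, Gins and Cdc genes, 0 rose and 0 fell in edgeR. At an unadjusted p below 0.05, 0 were higher and 2 lower. All 20 had negative log2 fold changes, with a median of −0.16, where 6861 of all 12758 tested genes were negative. Of 36 genes of DNA synthesis in S phase, 0 rose and 0 fell (at an unadjusted p below 0.05, 5 higher and 0 lower), with a median of −0.12. With library totals as the only scaling, where 11.2% of all tested genes were lower, 12 of the 20 and 13 of the 36 were called lower. Of 66 further G2/M genes, 4 rose and 0 fell, a share of risers close to that of all genes, with a median of −0.086; with library totals, 21 were lower. The 4 were the chromatin proteins Hmgb1 (4.37) and Hmgb2 (2.91), the CDK-binding protein gene Cks2 (2.36) and the tubulin gene Tubb4b (1.08), each with 21.7% or more of its words shared. Cks2, for example, had 113.3 and 130.0 CPM in the SphK1 -/- libraries against 25.5 and 21.8 CPM in the control libraries, with 31.8% of its words shared. Of 16 genes of the retinoblastoma, E2F and DREAM group, 3 rose: Tfdp1 (1.38), the partner of E2F factors, Lin52 (0.93) of the DREAM complex, and Mybl2 (0.75), which encodes B-MYB. Tfdp1 and Mybl2 shared 22.03% and 21.1% of their words and Lin52 1.53%; among all tested genes that shared over 15% and up to 30%, 47.7% rose. Of 13 other tested cyclins, kinases and inhibitors, Ccng2, a cyclin of non-dividing cells, fell by 0.49 (adjusted p = 0.0436), at 86.6 and 99.0 CPM in the SphK1 -/- libraries against 134.9 and 125.1 CPM in the control libraries.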

How the data were processed

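The deposited table held raw counts per gene, which the authors had made; the submitters' processing notes name build GRCm38 and the tools HTSeq 0.6.1p1, TopHat2 2.0.13, DESeq2 1.14.1 and cutadapt 1.11. What each tool did, which gene models were used, and how strand and multiply matching reads were handled are not given in the sources used here. Of 23419 entries, 22672 carried a gene name; 27 dates and 720 unnamed entries were left out (0.261% to 0.312% and 0% to 1.17% of counts). The 720 had no value in either SphK1 -/- library.

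Genes were compared with edgeR 4.0.16 in R 4.3.3 (filterByExpr with a minimum count of 10, TMM scaling, quasi-likelihood F test, genotype as the only term, 2 libraries against 2, Benjamini-Hochberg adjustment over all 12758 tested genes, threshold 0.05). The SE was taken from the fold change and its F statistic (fold change on the log2 scale over the root of F). DESeq2 1.42.0, limma 3.58.1, other scalings, no filter, a replicate block, the omission of each library and a fit of genes with little shared sequence (up to 5% of words) and little exonic overlap (up to 10%) were alternatives. The code was tested on simulated data. Shared words, copies (blastn) and exon lengths came from GENCODE M21, in which 21753 symbols were found directly and 635 through synonyms. Members and lists were chosen with earlier results of these data known. Called members, the 5 largest fold changes and a list of defining genes are given per library; of other lists, at most the 5 largest called genes per direction are named, except 1 that is not reported here. At 44277592 to 53640611 counts per library, 3 counts correspond to 0.0598 to 0.0639 CPM.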

Additional observations from a re-analysis of the deposited data

How the results depend on the processing

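Ube2s, Ccnb1, Pcna and Cdkn2c kept their call under every alternative that could test them, with log2 fold changes of 3.64 to 4.06, 1.58 to 1.97, 1.01 to 1.45 and 0.73 to 1.07. Ccnd3 kept it under 8 of 13. With library totals as the only scaling, the median of all tested genes moved to −0.26, 12 of 45 members were lower instead of 0, where 11.2% of all tested genes were lower, and the G1/S and G2/M medians were −0.35 and −0.32. The fit of genes with little shared sequence and little overlap held 31 of the 45 members, and left out Ccnb1, Pcna and Mcm7 among others. In it 2 members rose, with a G1/S median of −0.022 and a G2/M minus G1/S difference of −0.051. These values are over fewer members than the main medians, so the fit and the set of genes changed together. Leaving out 1 library at a time, 4 to 6 members rose, the G1/S median ranged from −0.20 to −0.0097, the G2/M median from −0.15 to −0.0086, and their difference from −0.079 to 0.13.

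Same-numbered libraries did not deviate together (correlation −0.037 over 12758 genes), so the labels' numbers were not taken as pairs; with the replicate block 6 members rose, Cdkn1a included (0.52, adjusted p = 0.0377), and Cdkn2a was at 0.079. Sign changes touched members without a call. With library totals they were Ccnd2 (−0.00027), Cdc25a (−0.22), E2f3 (−0.19), Plk1 (−0.20), Cdc20 (−0.10) and Ube2c (−0.098). Mad2l1 was at 0.0031 with DESeq2 size factors and with the DESeq2 Wald test, and Cdkn2a at 0.13 in limma-voom. Among genes with little shared sequence, Foxm1, Mad2l1, Cenpe and Cenpf were at 0.011, 0.032, 0.020 and 0.019. With scaling by genes without shared words, an alternative chosen after seeing the data, they were at 0.016, 0.039, 0.026 and 0.023, and Top2a at 0.0048. Without 1 library, values ranged from −0.18 to 0.052 for Mcm2, −0.095 to 0.077 for Mad2l1, −0.14 to 0.093 for Cenpe, −0.17 to 0.19 for Cenpf, −0.25 to 0.022 for Kif11, −0.18 to 0.075 for Kif20a, −0.15 to 0.059 for Top2a, −0.067 to 0.11 for Cdc25a, −0.14 to 0.083 for E2f1, −0.051 to 0.17 for E2f3, −0.064 to 0.13 for Plk1, −0.65 to 0.95 for Cdkn2a, −0.29 to 0.016 for Ccne1, −0.16 to 0.042 for Cdk1, −0.22 to 0.0019 for Birc5 and −0.078 to 0.065 for Foxm1. The causes were not tested.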

Other observations

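Ubiquitin-conjugating enzymes beyond the mitotic pair also held risers. Of 28 tested enzymes of that family, 7 rose and 0 fell, against 6.0% of all tested genes that rose. Among them were Ube2v1 (log2 fold change 4.18), Ube2n (2.92), Ube2v2 (2.62) and Ube2l3 (1.46). UBE2N works in a pair with UBE2V1 or UBE2V2 to build chains linked through lysine residues of ubiquitin. Ube2n had 158.1 and 176.0 CPM in the SphK1 -/- libraries and 24.6 and 19.4 CPM in the control libraries. Each of the 7 shared between 6.44% and 51.2% of its 30-base words with other annotated genes. Among all tested genes, 17.4% rose in the class above 5% and up to 15%. In the class above 15% and up to 30% it was 47.7%, and above 30% it was 46.7%. Exons of other genes covered 69.1% of the exonic bases of Ube2v1 and 28.6% of those of Ube2l3. The part of shared sequence and overlap in these values was not tested. Of 19 subunits and regulators of the anaphase-promoting complex, 3 rose: Ube2d2a (2.61), Ube2d3 (1.05) and the subunit gene Cdc26 (0.98), sharing 6.22%, 5.51% and 4.38% of their words.

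Of 17 tested targets and partners of p53, 14 had positive log2 fold changes, where 5897 of all 12758 tested genes did. Of the 17, 1 rose, a share close to the 6.0% of all tested genes. Their median was 0.20, beside −0.021 over all tested genes. The level of the list differed mainly in 1 library: mean log2 CPM was 5.81 and 5.78 in the SphK1 -/- libraries against 5.10 in control 1 and 5.75 in control 2, and the summed level was 1515 and 1541 CPM in the SphK1 -/- libraries against 1050.2 and 1580.3 CPM in the control libraries. The riser was Aen, which encodes an apoptosis-enhancing nuclease, with 129.2 and 130.3 CPM in the SphK1 -/- libraries against 45.1 and 73.7 CPM in the control libraries (1.13 ± 0.20 SE, adjusted p = 0.00943).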
